A study of Mus musculus with 9 samples.

Results

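The vacuolar proton pump, or V-ATPase, was described here through 10 of its subunit genes in sorted mouse long-term hematopoietic stem cells (LT-HSCs). The genes are Atp6v0a1, Atp6v0a2, Tcirg1 and Atp6v0d1 of the membrane sector V0, Atp6v1a, Atp6v1b2, Atp6v1c1, Atp6v1d and Atp6v1h of the cytosolic sector V1, and the accessory subunit Atp6ap1. They were chosen by name from the 47643 genes of the count table, with earlier results of these data known. All 10 were among the 18205 genes with enough counts to be tested. The libraries came from donor marrow of C57BL/6 mice transplanted into lethally irradiated recipients, and each of the 3 genotypes had 3 libraries. The TKO donors carried Pik3ca lox/lox, Pik3cb lox/lox, Pik3cd-/- and Mx1-Cre, so that the class IA PI3K catalytic isoform P110δ is absent from the germline and P110α and P110β are lost in blood cells once Cre is active. The δKO donors were littermates with the same floxed and Pik3cd-/- alleles but no Cre, so that between TKO and δKO the presence of Cre and the loss of P110α and P110β cannot be told apart. The WT donors carried Mx1-Cre and no PI3K mutation, so δKO differs from WT in Cre and the floxed alleles as well as in Pik3cd, which cannot be told apart. All recipients received 2 injections of pIpC (250 μg, 48 hours apart), a synthetic RNA that switches on the interferon-inducible Mx1 promoter. Donor LT-HSCs, gated as CD150+, CD48- and Flk2- within the Lin-Sca1+cKit+ fraction, were sorted 4 weeks later from marrow pooled over 7 recipients per group. No source ties a library to an animal, so each p-value measures only the spread between these libraries, which may be technical.

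V-ATPases use ATP to move protons into lysosomes, endosomes, the Golgi and secretory granules. The V1 sector holds the catalytic A and the B subunits and hydrolyses ATP, while the V0 sector forms the path for protons through the membrane. Acidity is needed for lysosomal enzymes to digest what autophagy delivers, and the pump also takes part in the sensing of amino acids by MTORC1 on the lysosome, a kinase complex that acts downstream of PI3K and AKT. The question put to these genes was whether their RNA level in LT-HSCs differed between the 3 genotypes.

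Libraries held 31300343 to 60386097 counted reads, and 18180 to 22703 genes had at least 1 count. Levels are given as CPM, the counts of a gene scaled to the library total with edgeR's TMM factors. δKO replicate 1 and the δKO library without a replicate number had the fewest detected genes (18180 and 18500). Of the targeted genes, Pik3cb ranged from 25.5 to 33.9 CPM in TKO, below all WT libraries (44.6 to 63.6 CPM), and δKO reached from 33.2 to 101 CPM. Pik3cd ranged from 38.5 to 91.2 CPM in δKO and from 71.2 to 73.5 CPM in TKO, against 98.2 to 139 CPM in WT. Pik3ca overlapped between all genotypes (41.3 to 88.2 CPM). Counts over a whole gene include exons outside a deleted part, so residual reads do not check the deletion. All 8 LT-HSC marker genes listed (Kit, Ly6a, Slamf1, Fgd5, Hoxb5, Procr, Mecom and Hlf) had reads in every genotype, and their summed level was 1337 to 1719 CPM in TKO, 1003 to 2067 CPM in δKO and 1062 to 1187 CPM in WT.

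RefSeq promoter windows of 300 bases (250 before to 50 after the transcription start, GRCm38.p6) were found for 6 of the 10 genes: Atp6v0a1, Tcirg1, Atp6v0d1, Atp6v1a, Atp6v1d and Atp6ap1. Lysosomal genes are known for E-box motifs with the core CACGTG, bound by factors of the TFEB family. The core was present in 2 of the 6 genes, and in both it was part of the longer palindrome TCACGTGA, which reads the same on each strand and contains the core. Of all 27025 genes with such a window, 8.09% held CACGTG and 1.12% held TCACGTGA in at least 1 of their windows. The stretches around the palindrome, with its bases in capitals, are shown because they set apart Atp6v0d1 and Atp6v1a, which are compared further on.
Atp6v0d1, chr8:105566047-105566096, minus strand, with the palindrome beginning 4 bases before the start: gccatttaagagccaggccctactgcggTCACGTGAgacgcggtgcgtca
Atp6v1a, chr16:44139356-44139419, minus strand, with the palindrome beginning 132 bases before the start: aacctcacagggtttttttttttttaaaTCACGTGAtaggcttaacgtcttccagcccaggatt
These 2 genes ran alike in only part of the libraries. In log2 CPM, both were above their mean over the 9 libraries in all WT libraries, the unnumbered δKO library and TKO replicate 2. Both were below it in TKO replicate 3, and they lay on opposite sides of it in δKO replicates 1 and 2 and TKO replicate 1. In δKO replicate 1, Atp6v0d1 had its lowest value of all 9 libraries (15.1 CPM) while Atp6v1a stood at 288 CPM, above every WT library.

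In WT LT-HSCs the subunits fell into 3 tiers when levels were divided by the length of all annotated exons of a gene in kb. The transcript expressed was not determined, so the tiers depend on that length. In undivided mean WT CPM, Atp6v0d1 (64.5) was below Tcirg1 (84.0), Atp6v1d (78.5) and Atp6v1b2 (77.2). Atp6v1h (45.8) was above Atp6v1c1 (34.4) and Atp6v0a1 (32.0). The upper tier held Atp6ap1 (38.8 ± 14.0 CPM per kb, SD, n = 3), an accessory subunit that helps the pump assemble, Atp6v0d1 (36.0 ± 3.02), which links the rotor of V0 to the V1 stalk, and Atp6v1a (35.7 ± 2.58), the catalytic A subunit. Their ranges overlapped each other, and all 3 were separate from Tcirg1, the next gene. The middle tier was Tcirg1 (18.2 ± 2.45 CPM per kb), an isoform of the a subunit best known from the osteoclast, Atp6v1d (17.0 ± 4.21), part of the central stalk, and Atp6v1b2 (14.6 ± 1.21), the B subunit that most cells use. The ranges within this tier also overlapped. The lower tier held Atp6v0a2 (8.29 ± 1.59 CPM per kb), Atp6v1c1 (6.14 ± 0.899), Atp6v0a1 (4.88 ± 1.13) and Atp6v1h (4.70 ± 0.602), in which each neighbour overlapped the next.

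The a subunit lines the proton path of V0, and its isoform decides which membrane a pump sits in. Tcirg1 had the highest level per kb of the a isoforms in 9 of 9 libraries, with 45.4% to 68.9% of their sum. Atp6v0a2, the isoform known from the Golgi and endosomes, held 15.5% to 40.3%, and Atp6v0a1 held 9.75% to 28.9%. The lead of Tcirg1 in every library depended on the division by length. In undivided CPM of TKO replicate 3, Atp6v0a2 was at 56.0 and Tcirg1 at 43.2. The kidney and inner ear isoform Atp6v0a4 was below the count filter, with 0.107 CPM at most. The share of Atp6v0a1 was 16.4% ± 7.84 in TKO, 23.4% ± 6.68 in δKO and 15.4% ± 2.03 in WT (SD, n = 3 each). The difference between δKO and WT was 7.97 percentage points (exact two-sided permutation test, p = 0.2, adjusted p = 0.9 over 9 tests). The difference of TKO from δKO was −7.0 points (exact permutation p = 0.2, adjusted p = 0.9) and that of TKO from WT was 0.98 points (exact permutation p = 0.9, adjusted p = 1). With 3 libraries against 3, no p below 0.1 was possible. Single libraries moved these differences. TKO less δKO ran from −11.3 points without TKO replicate 1 to −3.67 points without TKO replicate 2, and was −4.27 points without the unnumbered δKO library and −10.7 points without δKO replicate 2. δKO less WT ran from 5.25 points without the unnumbered library to 11.7 points without δKO replicate 2. TKO less WT ran from −3.35 points without TKO replicate 1 to 4.30 points without TKO replicate 2, so its direction rested on single libraries. Atp6v0a2 and Tcirg1 shares gave exact permutation p-values of 0.4 to 1 in the same comparisons.

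**Figure D1:**
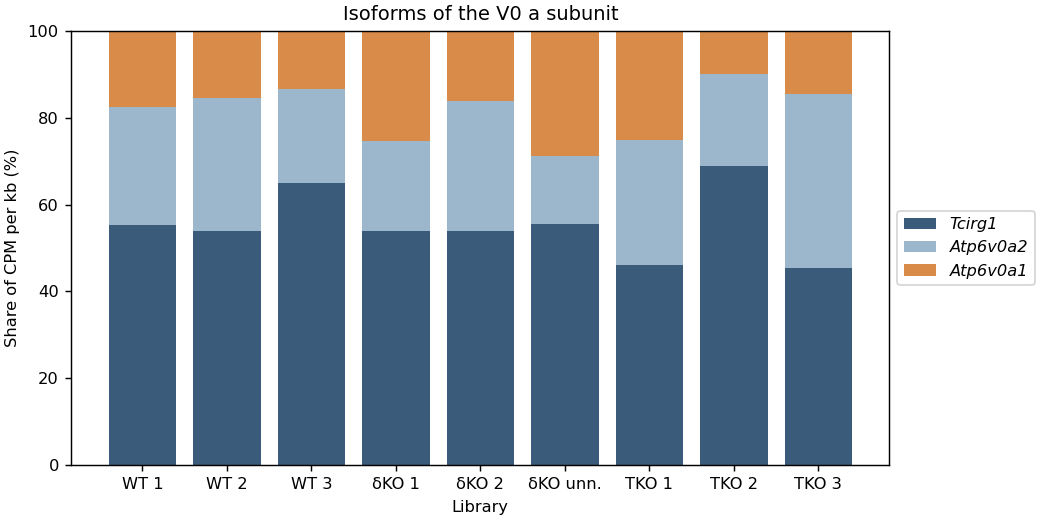
Share of each a-subunit isoform in the summed CPM per kb of the 4 isoform genes (y axis, percent), with 1 stacked bar per library on the x axis (unn., the δKO library without a number). Atp6v0a4, at 0.0959% at most, is not drawn. Tcirg1 is the largest part of every bar, and the Atp6v0a1 part is largest in the unnumbered δKO library at 28.9%.

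Between TKO and WT, all 10 subunits had a lower fitted level in TKO, and none passed the test. The median log2 fold change of the 10 genes was −0.39, beside 0.02 over all 18205 genes, of which 48.8% lay below 0. Values ran from −0.62 for Atp6v1a to −0.22 for Atp6v0a2. No subunit had an unadjusted p under 0.05 (2.5% of all genes were lower and 1.68% higher at that threshold), and every adjusted p was 1.00 (edgeR's quasi-likelihood test). With the number of detected genes as a covariate, Tcirg1 (−0.88) and Atp6v1a (−0.91) had an unadjusted p under 0.05, both with an adjusted p of 1.00 (edgeR). By edgeR, 0.00549% of all genes, a single one, were called at an adjusted p under 0.05 and more than 2-fold. By DESeq2, 0.657% of genes with an adjusted p had one under 0.05, and none of the 10 was among them. All of these p-values rest on a spread estimated over all 9 libraries, δKO included. With only the TKO and WT libraries fitted, no subunit had an unadjusted p under 0.05 by edgeR or by DESeq2. All 10 stayed below 0 with each TKO or WT library left out in turn, and under every other alternative tried.

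**Figure D2:**
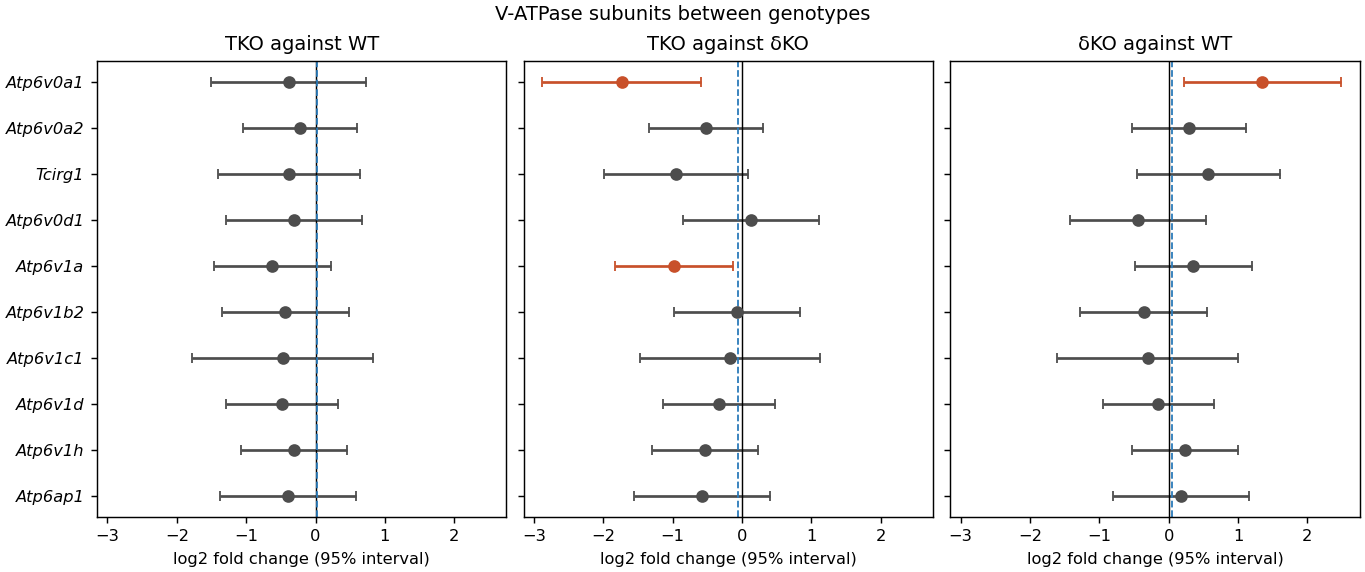
Fitted log2 fold change (x axis) of the 10 subunits (y axis) in the 3 comparisons, with 95% intervals from edgeR. The spread behind each interval was estimated over all 9 libraries. Orange marks an unadjusted p under 0.05 and the dashed line is the median of all genes tested. Against WT, all 10 TKO points lie left of 0 and all 10 intervals include 0.

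Of the subunits, only Atp6v0d1 had no overlap between TKO and WT, against a background of 7.47% of genes that did not overlap and were lower in TKO. Atp6v0d1 (ENSMUSG00000013160.7, mm10 chr8:105524465-105566047, minus strand) stood at 62.8, 60.2 and 70.6 CPM in the WT libraries and at 55.4, 57.0 and 43.4 CPM in TKO. The gap between the nearest libraries of these genotypes was smaller than the distance within either of them. The fitted log2 fold change was −0.31 (SE 0.45, 95% interval −1.29 to 0.67). The spread behind this interval was estimated over all 9 libraries, and δKO replicate 1 stood at 15.1 CPM. Fitted on the TKO and WT libraries alone, the unadjusted p was 0.189 and the adjusted p 0.750, beside an unadjusted 0.499 over all libraries (edgeR).

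Atp6v1a (ENSMUSG00000052459.13, chr16:44085402-44139705, minus strand) had the lowest fold change between TKO and WT. It was at 233, 203 and 211 CPM in WT and at 71.8, 225 and 124 CPM in TKO. TKO replicates 1 and 3 were below all WT libraries, while TKO replicate 2 lay within them. The log2 fold change of −0.62 had a 95% interval of −1.47 to 0.22. Without TKO replicate 1 it was −0.31, and without TKO replicate 2 it was −1.14, with an unadjusted p under 0.05 and an adjusted p of 1 (edgeR). Atp6v1b2, which forms the hexamer of V1 together with the A subunit, showed the same order of TKO libraries at 28.1, 92.2 and 51.2 CPM, beside 82.1, 79.7 and 70.0 CPM in WT. Its log2 fold change was −0.43 with all libraries, −0.11 without TKO replicate 1 and −0.96 without TKO replicate 2, and in the last setting these 2 genes were the subunits with an unadjusted p under 0.05, both with an adjusted p of 1 (edgeR). Tcirg1 had values of 41.5, 108 and 43.2 CPM in TKO against 90.1, 71.0 and 90.9 CPM in WT, so that here too replicate 2 stood above the other TKO libraries. Its log2 fold change of −0.38 was −0.15 without TKO replicate 1, −0.16 without TKO replicate 3 and −0.99 without TKO replicate 2. Atp6v1d was at 51.7, 73.0 and 44.1 CPM in TKO against 72.6, 62.7 and 100.1 CPM in WT, again with replicate 2 the highest in TKO.

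Atp6v0a1, Atp6v0a2 and Atp6v1h did not follow that order. Atp6v0a1 was at 32.1, 21.9 and 19.5 CPM in TKO replicates 1, 2 and 3. Atp6v0a2 was at 38.1, 49.1 and 56.0 CPM in TKO replicates 1, 2 and 3 and at 64.7, 58.7 and 43.9 CPM in WT. Atp6v1h was at 43.4, 31.9 and 35.8 CPM in TKO and at 52.0, 45.1 and 40.3 CPM in WT. For Atp6v0a2 and Atp6v1h the TKO and WT libraries overlapped, with log2 fold changes of −0.22 (SE 0.38) and −0.31 (SE 0.35). With a single library left out, the value ran from −0.37 to −0.089 for Atp6v0a2 and from −0.44 to −0.21 for Atp6v1h.

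The mean over the 10 subunits of log2 CPM, centered on the 9 libraries, put these differences on a single scale. It was −0.54, 0.08 and −0.44 in TKO replicates 1, 2 and 3. In WT it was 0.29, 0.05 and 0.11, and in δKO it was −0.07 and −0.07 in replicates 1 and 2 and 0.58 in the unnumbered library. TKO replicate 2 therefore lay inside the WT range, and TKO replicates 1 and 3 were the lowest of all libraries. Of the TKO libraries, replicate 2 had the lowest summed LT-HSC markers at 1337 CPM, beside 1620 and 1719 CPM in replicates 1 and 3. The markers did not run alike. Among the TKO libraries, Kit, Slamf1, Mecom and Hlf were lowest in replicate 2, Ly6a, Hoxb5 and Procr were highest in it, and Fgd5 lay between. The WT and TKO ranges of the sum did not overlap. The part of this shift in the subunit differences was not tested. The TKO mean of the subunits was −0.30 ± 0.34, beside 0.15 ± 0.38 for δKO and 0.15 ± 0.12 for WT (SD, n = 3 each).

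The summed level of genes of granulocyte precursors followed the order of the subunits in part of these libraries. The 10 neutrophil and granule genes listed (S100a8, S100a9, Ngp, Camp, Ltf, Lcn2, Elane, Mpo, Prtn3 and Ctsg) were detected in all genotypes, and none was at 0 in any library. Their summed level ran from 169.5 to 3413 CPM in TKO, from 277 to 12803 CPM in δKO and from 5555 to 12868 CPM in WT. Within TKO the order was the same as for the subunits, with 3413 CPM in replicate 2, 961 CPM in replicate 3 and 169.5 CPM in replicate 1. The unnumbered δKO library, highest for the subunits, held 12803 CPM. δKO replicate 1 broke this order, with a sum of 277 CPM and a subunit mean near 0. δKO replicate 2 also broke it, with 5030 CPM and a subunit mean of −0.07, below the 0.08 of TKO replicate 2. Mpo alone held 8958 CPM of the sum in WT replicate 1 and 7226 CPM in the unnumbered δKO library. The genes of the list did not run alike. In TKO all 10 were lowest in replicate 1 and 8 were highest in replicate 2, while Ngp and Ltf were slightly higher in replicate 3. In WT the azurophil granule genes Mpo, Elane, Prtn3 and Ctsg were highest in replicate 1, as the subunit mean was, and the other 6 were highest in replicate 3. Mpo, the myeloperoxidase, stood at 8958, 3233 and 1693 CPM in WT and at 59.9, 1888 and 428 CPM in TKO. Ngp, a gene of later granules, stood at 164, 363 and 3844 CPM in WT and at 41.2, 155 and 161 CPM in TKO. Lin-, cKit+ and CD48- gates are meant to leave out mature granulocytes, macrophages and osteoclasts, but the purity of the sorted cells was not tested here. In bulk RNA, fewer cells of a type and less RNA per cell cannot be told apart, and the part of these genes in the subunit differences was not tested. Macrophage and osteoclast genes summed to 40.0 to 92.0 CPM over the libraries, with 7 of 8 detected in each genotype and Ocstamp at 0 throughout. Megakaryocyte genes summed to 146 to 548 CPM, erythroid genes to 3.06 to 109 CPM, B cell genes to 4.62 to 12.0 CPM and T cell genes to 0.199 to 8.70 CPM, with Cd3e, Cd3g and Cd8a at 0 in all libraries.

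**Figure D3:**
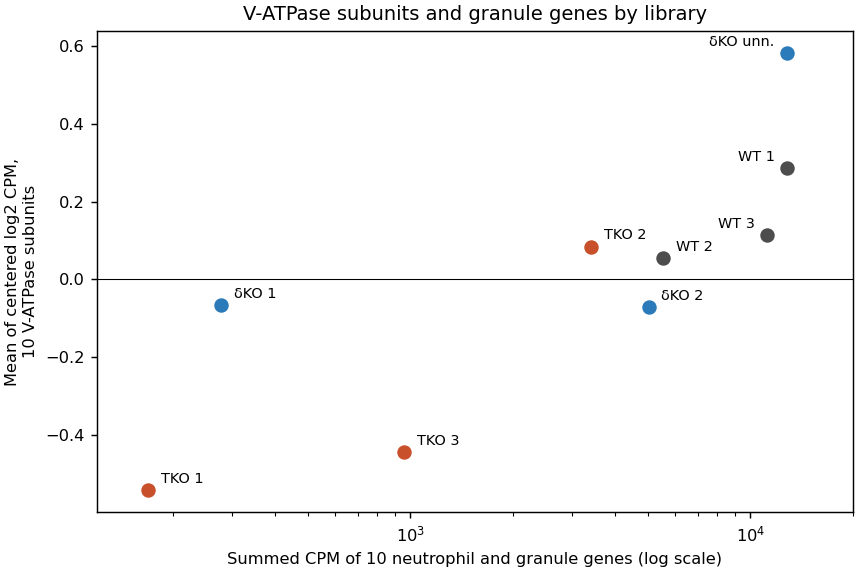
Mean of centered log2 CPM of the 10 V-ATPase subunits (y axis) against the summed CPM of 10 neutrophil and granule genes (x axis, log scale), with 1 point per library (gray WT, blue δKO, orange TKO). TKO 1 and TKO 3 are lowest on the y axis, and the unnumbered δKO library is highest on the y axis at 0.58.

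Between TKO and δKO, 9 of the 10 subunits had a lower fitted level in TKO, with Atp6v0a1 and Atp6v1a furthest from 0. The median log2 fold change was −0.53, beside −0.06 over all genes, of which 52.8% were below 0. Without the unnumbered δKO library, 6 of the 10 were below 0 and the median was −0.28. With the number of detected genes as a covariate the median was −0.20, and 0 subunits had an unadjusted p under 0.05. The unadjusted p was under 0.05 for 2 subunits, both lower in TKO, where 5.56% of all genes were lower and 4.6% higher at that threshold. Neither passed after adjustment over 18205 genes. The smallest adjusted p of a subunit was 0.465, and the share of all genes called at an adjusted p under 0.05 and more than 2-fold was 0% by edgeR. By DESeq2, 3.01% of genes with an adjusted p had one under 0.05, and no subunit was among them. The δKO libraries entered this comparison and the next, so the values of both rest on the same 3 δKO libraries.

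Atp6v0a1 (ENSMUSG00000019302.16, chr11:101009452-101063719, plus strand), the a isoform best known from neurons, was at 135, 23.4 and 86.8 CPM in δKO replicate 1, replicate 2 and the unnumbered library. It was at 32.1, 21.9 and 19.5 CPM in TKO and at 40.4, 29.0 and 26.6 CPM in WT. δKO replicate 1 and the unnumbered library were above all others, while δKO replicate 2 fell among the TKO and WT libraries, so the groups overlapped. The log2 fold change of TKO against δKO was −1.74 (SE 0.52, 95% interval −2.88 to −0.59, edgeR adjusted p = 0.465). DESeq2 gave −1.77 with an adjusted p of 0.0731. Without δKO replicate 1 the log2 fold change was −1.17 (edgeR adjusted p = 0.386). With the number of detected genes as a covariate, which is lowest in the 2 libraries with high values, it was −0.62 (edgeR adjusted p = 0.999), with an unadjusted p no longer under 0.05.

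Atp6v1a was at 288, 172 and 369.5 CPM in δKO and at 71.8, 225 and 124 CPM in TKO. δKO replicate 2 lay below TKO replicate 2, so these groups overlapped as well. The log2 fold change was −0.98 (SE 0.39, 95% interval −1.83 to −0.13, edgeR adjusted p = 0.465). It was −0.72 without the unnumbered δKO library, −0.67 without TKO replicate 1, −0.90 without TKO replicate 3, and −0.53 with detected genes as a covariate, and in each of these settings its unadjusted p was no longer under 0.05. Without TKO replicate 2 it was −1.50.

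Tcirg1, at 201, 55.5 and 118 CPM in δKO, differed by a log2 fold change of −0.95 (95% interval −1.99 to 0.08) in TKO. The value was −0.43 without δKO replicate 1, −1.56 without TKO replicate 2 and −0.20 with detected genes as a covariate. The other 7 subunits lay between −0.58 for Atp6ap1 and 0.13 for Atp6v0d1, and the interval of each included 0. None of the 10 was free of overlap in either direction, where 4.74% of all genes did not overlap and were lower in TKO and 6.98% did not overlap and were higher.

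**Figure D4:**
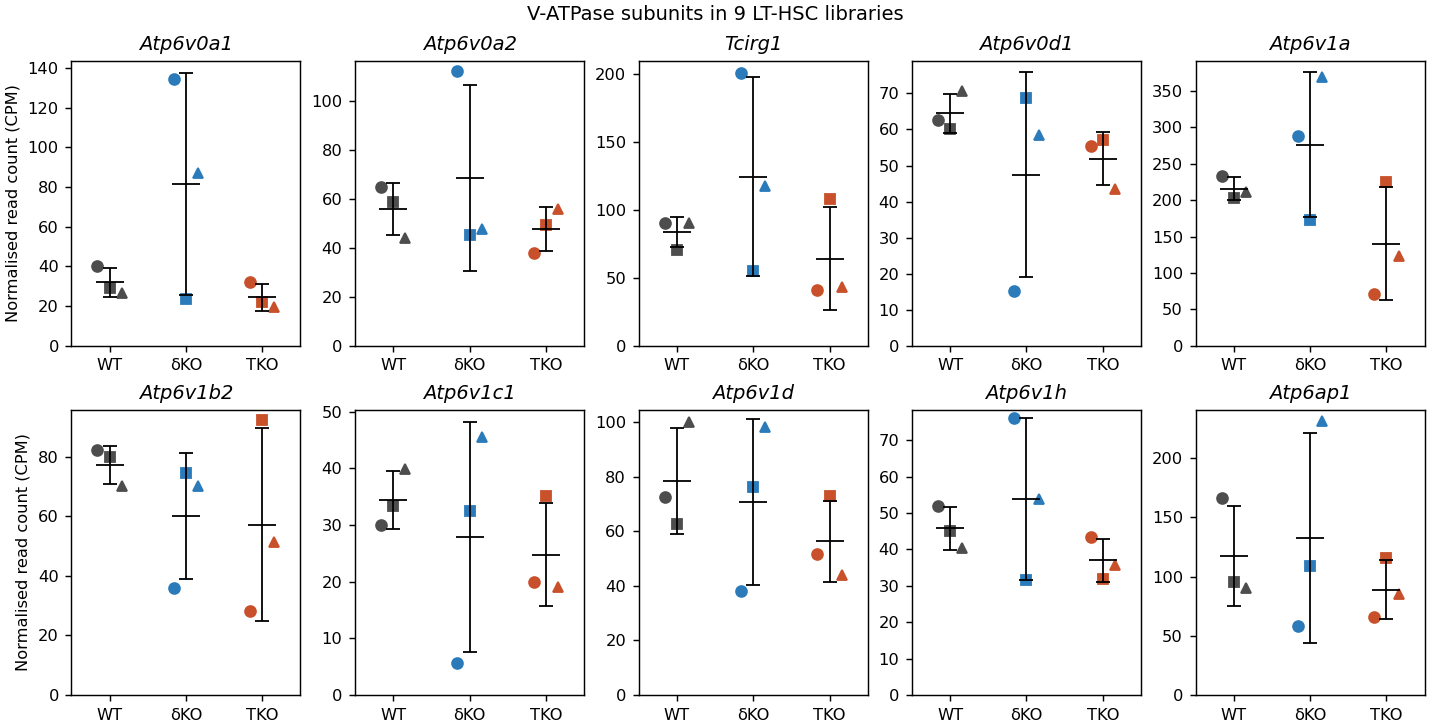
Normalised read count (CPM, y axis from 0) of each subunit in the 3 genotypes (x axis), with 1 point per library (circles replicate 1, squares replicate 2, triangles replicate 3 or the unnumbered δKO library) and the mean ± SD in black. The δKO points span more than the WT points in every panel. For Atp6v0a1, 2 δKO points at 86.8 and 135 CPM stand above all others.

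Between δKO and WT, 6 subunits had a higher and 4 a lower fitted level in δKO, with a median log2 fold change of 0.21 beside 0.05 over all genes (47.2% of them below 0). This direction depended on the fit, since all 10 were below 0 with the number of detected genes as a covariate (median −0.26), and the median was −0.18 without the unnumbered δKO library. Atp6v0a1 alone had an unadjusted p under 0.05, at a log2 fold change of 1.35 (SE 0.52, edgeR adjusted p = 0.699), where 3.65% of all genes were higher at that threshold. No subunit passed after adjustment, where edgeR called 0.00549% of all genes and DESeq2 gave 1.05% of genes an adjusted p under 0.05. Without δKO replicate 1 the value for Atp6v0a1 was 0.78, and its unadjusted p was no longer under 0.05. It was −0.07 with detected genes as a covariate, so its direction in δKO depended on that term. The other subunits ranged from −0.44 for Atp6v0d1 to 0.57 for Tcirg1, all with intervals that included 0. Without δKO replicate 1, Atp6v0d1 was at −0.020 and Tcirg1 at 0.043.

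The libraries of δKO lay furthest apart. The ratio of the highest to the lowest library within a genotype had a median over the 10 genes of 3.10 in δKO, 1.70 in TKO and 1.31 in WT, and the medians over all genes were 3.82, 2.27 and 1.87. It was over 2 for 10 of 10 subunits in δKO, for 3 of 10 in TKO and for 0 of 10 in WT, where 74.4%, 56.4% and 46.1% of all genes were over 2. The widest was Atp6v1c1 in δKO. This gene encodes the C subunit, which lets V1 detach from and rejoin V0, and it was at 5.70, 32.4 and 45.5 CPM in δKO, at 30.0, 33.3 and 39.9 CPM in WT and at 20.0, 35.2 and 19.1 CPM in TKO. Only δKO replicate 1 was far below the rest.

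δKO replicate 1, the library with the fewest detected genes (18180), held an extreme value of 8 of the 10 subunits, in opposite directions. It was the highest of 9 libraries for Atp6v0a1, for Atp6v0a2 (112 CPM, where the next was 64.7 CPM), for Tcirg1 (201 CPM) and for Atp6v1h (76.0 CPM, with 31.5 and 53.9 CPM in the other δKO libraries), the H subunit that holds V1 inactive once it has left V0. It was the lowest for Atp6v0d1, Atp6v1c1, Atp6v1d (38.2 CPM, with the others from 44.1 to 100.1 CPM) and Atp6ap1 (58.2 CPM). The subunit mean of that library, near 0, thus averaged values from −2.15 to 1.88 on the centered log2 scale. How often all genes had an extreme in that library was not counted, so the count does not set the subunits apart. The unnumbered δKO library was above the mean of the 9 libraries for 9 of 10 subunits, with Atp6v0a2 the exception at −0.19. It held the highest value of Atp6v1a, Atp6v1c1 and Atp6ap1. Atp6ap1, at 58.2, 109 and 231 CPM in δKO, 166, 95.7 and 90.3 CPM in WT and 66.3, 116 and 85.1 CPM in TKO, had unlike values in all 3 genotypes. TKO replicate 1 was the lowest of 9 for Atp6v0a2, Tcirg1, Atp6v1a and Atp6v1b2.

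**Figure D5:**
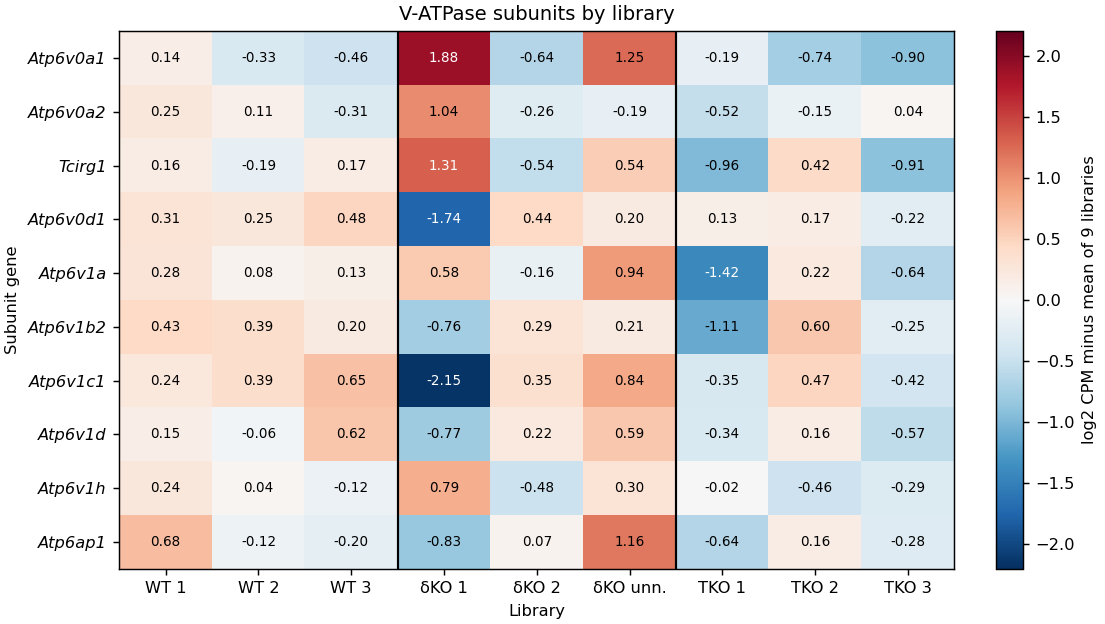
Log2 CPM of each subunit (rows) in each library (columns, unn. for the δKO library without a number), less the mean of the 9 libraries, with the value printed in each cell. δKO 1 runs from −2.15 for Atp6v1c1 to 1.88 for Atp6v0a1, while WT cells run from −0.46 to 0.68.

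As a description, the 45 pairs of subunits had a median Pearson r of 0.40 across the 9 libraries, from −0.85 for Atp6v0a2 with Atp6v0d1 to 0.94 for Atp6v0d1 with Atp6v1c1, and 17 pairs were negative. These values share the libraries and their depth, and δKO replicate 1 lies at an end of the range for both extreme pairs. The genes outside the list whose pattern was most like the subunit mean were Tkt, an enzyme of the pentose phosphate pathway (r = 0.967), Ero1l, an oxidase of the endoplasmic reticulum (r = 0.966), Srgn, a proteoglycan of secretory granules (r = 0.965), Myo1g (r = 0.954), a myosin of blood cells, and Mtpn (r = 0.952). Of the 10765 genes compared, those averaging 5 CPM or more, 56 had r over 0.9.

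Of 16 other subunit genes of the pump, 11 were tested, and Atp6v0a4, Atp6v0d2, Atp6v1b1, Atp6v1e2 and Atp6v1g3 were below the count filter. In TKO against WT, 6 were lower and 5 higher (median −0.16), and against δKO 4 were lower and 7 higher (median 0.12). The 1 gene of the 11 with an unadjusted p under 0.05, in TKO against δKO, beside 5.56% of all genes lower and 4.6% higher, was Atp6ap2, the partner of Atp6ap1 known as the prorenin receptor. It was at 49.7, 29.5 and 38.8 CPM in WT, 18.1, 47.6 and 81.8 CPM in δKO and 12.9, 28.4 and 19.4 CPM in TKO. It alone of the 11 did not overlap between TKO and WT, where 7.47% of all genes did not overlap and were lower in TKO, and its log2 fold change was −0.96 (SE 0.51). Against δKO it was −1.28 (SE 0.51, edgeR adjusted p = 0.465). Averaged over the 3 genotypes, the tested gene of this list with the highest level per kb was Atp6v1f (29.3 CPM per kb) and the one with the lowest was Atp6v0e2 (0.103 CPM per kb).

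All 11 genes for assembly and reassembly of the pump were tested, and in TKO against δKO 2 were lower and 1 higher at an unadjusted p under 0.05, beside 5.56% and 4.6% of all genes. Wdr7, a partner of the DMXL proteins in the complex that rejoins V1 to V0, was at 138, 57.9 and 122 CPM in δKO, at 50.0, 39.6 and 35.7 CPM in TKO and at 51.8, 56.1 and 47.7 CPM in WT. All δKO libraries were above all others, where 4.74% of all genes did not overlap and were lower in TKO than in δKO and 4.13% did not overlap and were higher in δKO than in WT. Wdr7 had a log2 fold change of −1.34 for TKO against δKO (SE 0.34, edgeR adjusted p = 0.465, DESeq2 adjusted p = 0.0231) and 1.03 for δKO against WT (SE 0.34, edgeR adjusted p = 0.699). Oxr1, a TLDc-domain protein, had a log2 fold change of −0.81 against δKO (SE 0.33) and Tldc1, a protein with the same domain, of 2.33 (SE 0.84, edgeR adjusted p = 0.465, DESeq2 adjusted p = 0.037). Tldc1 was at 4.63, 13.8 and 15.5 CPM in TKO and at 2.07, 3.58 and 1.07 CPM in δKO. Tbc1d24, the other TLDc gene on the list with a low p, had a log2 fold change of 0.93 in δKO against WT (SE 0.42). None of these passed by edgeR after adjustment. Averaged over the 3 genotypes, the level per kb was highest for Ccdc115 (20.0 CPM per kb) and lowest for Tmem199 (0.883 CPM per kb), both assembly factors.

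Chloride, cation and proton carriers of the same compartments were tested as well, and all 14 passed the count filter. Clcn6, a chloride-proton exchanger of late endosomes, was at 22.2, 29.7 and 49.5 CPM in WT, at 138, 58.7 and 84.4 CPM in δKO and at 89.0, 45.4 and 101 CPM in TKO. The δKO libraries lay above all WT libraries, as for 4.13% of all genes, and TKO overlapped both. The log2 fold change was 1.47 for δKO against WT (SE 0.43, edgeR adjusted p = 0.699) and 1.21 for TKO against WT (SE 0.43, edgeR adjusted p = 1). Mcoln2, a cation channel of endosomes, differed between TKO and δKO by a log2 fold change of 1.52 (SE 0.57, edgeR adjusted p = 0.465). Its relative Mcoln3, the lowest of the list per kb over the 3 genotypes, had 0.0504 to 0.501 CPM in WT and 0.0765 to 6.71 CPM in TKO (log2 fold change 3.92, SE 1.70, edgeR adjusted p = 1). Tpcn1, the highest per kb over the 3 genotypes, was at 215, 131 and 117 CPM in WT and at 98.1, 139 and 81.7 CPM in TKO. Clcn4, Mcoln2, Tpcn2 and Tmem175, named after their values were seen, did not overlap and were lower in δKO than in WT, which makes 4 of the 14 carriers beside 7.39% of all genes, and none had an unadjusted p under 0.05 there. In TKO against WT, 7 of the 14 carriers were lower and 7 higher (median 0.06), and no test of the 10 subunits against this list was made.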

How the data were processed

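RNA of sorted LT-HSCs was amplified with the Ovation RNA-Seq System V2. According to the methods and the submitters' processing notes, the authors trimmed reads with Trim Galore 0.3.7, checked them with FastQC 0.11.4, and aligned and counted them on mm10 with STAR 2.5.1b. The annotation is not given in the sources used here. The deposited raw counts are whole reads per gene for 47643 genes and 9 libraries. A second deposited table holds a normalized signal, equal to the counts divided by a constant in each of the 8 libraries whose columns match by name, and was used only as an alternative. The count column whose number no label carries was used as a δKO library without a number.

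Gene symbols, positions and exon lengths came from GENCODE M21, with 47224 gene identifiers found, 39106 of them with the same version. Exons of Atp6v0a2 (9.86% of their length) and Atp6v1h (1.3%) overlap genes on the opposite strand, whose reads could not be told apart because the kit does not mark strand. Genes were filtered with filterByExpr (count minimum 10, minimum total 15), which left 18205. TMM-scaled counts were fitted with edgeR 4.0.16 (R 4.3.3) by the quasi-likelihood method, with a mean for each genotype and without a block. The fit had 6 residual degrees of freedom and a common biological coefficient of variation of 0.805. Tests were two-sided, and p-values were adjusted by Benjamini-Hochberg over all genes tested. Calls needed an adjusted p under 0.05 and more than 2-fold. The fit was also run on simulated counts, in which each gene had the same spread in all genotypes. The genotypes here differed in spread, so that run does not check the p-values of these comparisons. Counts of libraries of the same genotype differed by a chi-square of 128 to 533 per gene, above sampling noise, so no library was counted as a repeat of another. This does not separate animals from separate amplifications of the same RNA.

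The members and lists were chosen with earlier results of these data known. Named from each list were genes with an unadjusted p under 0.05 in any comparison, those with the highest and lowest level per kb, and those below the filter. Also named were the members, the targeted genes and the 5 genes most like the subunit mean. Alternatives were RLE and upper-quartile scaling, no filter, a replicate block, detected genes as a covariate, DESeq2 1.42.0, only the groups compared, limma 3.58.1 on log2(value + 1), each library left out and, for isoform shares, no division by length. Plots used matplotlib 3.10.9 in Python 3.11.15.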

Additional observations from a re-analysis of the deposited data

How the results depend on the processing

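All 10 subunits lay below 0 in TKO against WT under every alternative, and no subunit passed an adjusted p of 0.05 in any comparison or alternative (lowest 0.0731). Of 450 fold changes of subunits under alternatives, 27 changed sign, none of them in TKO against WT. The cause was not tested.

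Same-numbered libraries did not deviate together (r from −0.04 to 0.08), so the numbers do not pair them, and every fit with a replicate block leaves out the unnumbered δKO library. With the replicate block, the median in TKO against δKO was −0.19, with 5 subunits below 0 and 1 at an unadjusted p under 0.05, and the sign changed for Atp6v1b2 (0.070), Atp6v1c1 (0.69), Atp6v1d (0.0041) and Atp6ap1 (0.21). In δKO against WT the block gave a median of −0.22, Atp6ap1 at −0.65 and 0 subunits at that threshold.

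With detected genes as a covariate, TKO against δKO had a median of −0.20, 0 subunits at an unadjusted p under 0.05 and Atp6v0d1 at −0.023. TKO against WT had 2 at that threshold, Atp6v1a and Tcirg1. In δKO against WT, all 10 were below 0 and 0 at the threshold, with a median of −0.26, and the sign changed for Atp6v0a1 (−0.066), Atp6v0a2 (−0.12), Tcirg1 (−0.68), Atp6v1a (−0.38), Atp6v1h (−0.30) and Atp6ap1 (−0.17). Upper-quartile factors put Atp6v1b2 at 0.0072 in TKO against δKO. The normalized values in limma put Atp6v1c1 at 0.21 there, with 0 subunits at an unadjusted p under 0.05 in that comparison and 0 in δKO against WT. With only the groups compared, TKO against δKO had 1 by edgeR and 1 by DESeq2.

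Each library of the groups compared was left out in turn. In TKO against δKO, the count at an unadjusted p under 0.05 was then 1 to 4. It was 4 without δKO replicate 2, and 1 without the unnumbered δKO library, TKO replicate 1 or TKO replicate 3. In TKO against WT the count was 0 to 2 (2 without TKO replicate 2). In δKO against WT it was 0 to 1 (0 without δKO replicate 1, WT replicate 2 or WT replicate 3). The median ran from −0.18, without the unnumbered library, to 0.41 in δKO against WT, from −0.73 to −0.28 in TKO against δKO and from −0.67 to −0.32 in TKO against WT. Ranges that crossed 0 in δKO against WT were −0.26 to 0.52 for Atp6v0a2, −0.85 to 0.18 for Atp6v1c1, −0.46 to 0.15 for Atp6v1d, −0.10 to 0.51 for Atp6v1h and −0.49 to 0.54 for Atp6ap1. In TKO against δKO they were −0.75 to 0.030 for Atp6v0a2, −0.30 to 0.49 for Atp6v0d1, −0.61 to 0.25 for Atp6v1b2, −0.66 to 0.37 for Atp6v1c1 and −0.94 to 0.088 for Atp6ap1. The Atp6v0a1 share differed by −3.35 to 4.30 points in TKO against WT.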
